A study of Mus musculus with 17 samples.

Results

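Transcript levels of 9 transcription factor genes that direct granulocyte and monocyte development, Cebpa, Cebpb, Cebpd, Cebpe, Spi1, Gfi1, Irf8, Klf2 and Klf4, were examined in 32D cells carrying human FLT3. They were chosen by name from the 20227 genes measured on 17 Affymetrix Mouse Exon 1.0 ST arrays. 32D is an immortalised mouse myeloblast-like line that depends on interleukin-3 (IL-3). FLT3 is a growth factor receptor with tyrosine kinase activity on blood progenitors, and an internal tandem duplication (ITD) is an activating mutation found in acute myeloid leukaemia. The series asked how FLT3/ITD mutants change expression.

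The arrays formed 5 groups. The 9 FLT3/ITD arrays came from 9 lines with different human mutants, numbered here 1 to 9, with 1 array each, and these lines grew without IL-3. The wild-type FLT3 line was split and grown with or without FLT3 ligand at 20 ng/mL (2 arrays each). The vector line carried the empty pLXRN retrovirus (2 arrays), and the parental line was not transduced (2 arrays). The wild-type, vector and parental lines received mouse IL-3 at 1 ng/mL and are called the IL-3 controls below. The labels leave unsaid whether the cultures with ligand kept IL-3, so the absence of IL-3 and the ligand cannot be told apart there. The ligand group was identified from the growth protocol, since its genotype label could also mean that the ligand itself was transduced. Transduced lines were populations of many clones, the retrovirus being delivered to mouse cells in culture, and the vector and wild-type lines were selected with G418. The mutants were instead moved to medium without IL-3, so mutant receptor and IL-3 withdrawal cannot be told apart in any comparison of ITD with an IL-3 control. The pairs of control arrays are called biological replicates, but whether they were separate lines or parallel cultures is not given in the sources used here, and their spread may be technical.

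The C/EBP proteins are basic leucine zipper factors that bind DNA as dimers. C/EBP-alpha opens the granulocyte-monocyte programme in progenitors, C/EBP-beta acts in macrophages and in granulocyte production under stress, C/EBP-delta is an inflammation-inducible relative, and C/EBP-epsilon drives late granule genes. PU.1, the ETS factor encoded by Spi1, is needed for the macrophage and neutrophil lineages. GFI1 is a zinc finger repressor that favours neutrophils and holds down monocyte genes, whereas IRF8 and KLF4 favour monocytes. KLF2 is a relative of KLF4 studied in lymphocytes, monocytes and endothelium.

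A gene value was the mean log2 signal of the probe sets of 1 gene, and a difference was called when limma's Benjamini-Hochberg adjusted p over all genes was under 0.05. The error after each difference is its standard error (SE) in the fit. A log2 difference of 1 is a doubling on the scale of the signals, and levels of different genes cannot be compared because their probes differ. Array medians lay between 4.63 and 4.69, and across genes the median correlation was 0.984 within control pairs, 0.977 among ITD lines, 0.963 between ITD and control arrays and 0.965 between control groups. Flt3, which checks the transgene label with mouse probe sets, had a value of 7.08 to 7.32 on the ITD arrays and averaged 6.89 with wild-type FLT3 and ligand and 6.76 with wild-type FLT3, and 5.19 with the vector and 5.25 in parental cells. Of 8 listed markers of 32D cells and myeloblasts 7 were matched, Elane not being analysed here. None averaged below 4.599, the threshold for dim probe sets, in any group. Only probe sets averaging above that threshold over all arrays were used, so this check could hardly fail and does not show expression. In the ITD lines no gene of a list of 7 lymphoid genes averaged below it either. Kit averaged 5.50 to 5.75 and Cd34 5.44 to 5.68 across the groups, and the lymphoid mean was 5.20 to 5.71 on the ITD arrays. Expression of Kit and Cd34 is therefore not shown. The mean of the 7 markers was 8.75 to 9.14 on the ITD arrays and 9.28 to 9.54 over all 8 control arrays. Such RNA comes from bulk cultures, in which fewer cells of a type and less RNA per cell cannot be told apart.

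Promoter windows, from 250 bases before to 50 bases after a gene's start, were taken from RefSeq (build GRCm38.p6), which held 8 windows for 6 of the 9 genes. Those shown belong to Gfi1, Cebpa and Cebpb, which differed between ITD lines and controls, and to Irf8, which did not pass that test. They were chosen after the values had been seen, and no binding or methylation was measured here. The sequences run 5′ to 3′ on the strand of the gene, with capitals marking matches to the motifs named below.
Gfi1, first of 2 listed starts, chr5:107725756-107726055, minus strand: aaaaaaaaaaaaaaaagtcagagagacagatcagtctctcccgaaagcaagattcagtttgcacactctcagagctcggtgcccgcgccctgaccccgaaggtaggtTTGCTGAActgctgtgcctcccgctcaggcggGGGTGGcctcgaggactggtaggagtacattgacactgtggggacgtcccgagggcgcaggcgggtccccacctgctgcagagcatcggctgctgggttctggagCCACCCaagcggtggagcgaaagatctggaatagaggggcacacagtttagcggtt
Cebpa, chr7:35119043-35119342, plus strand: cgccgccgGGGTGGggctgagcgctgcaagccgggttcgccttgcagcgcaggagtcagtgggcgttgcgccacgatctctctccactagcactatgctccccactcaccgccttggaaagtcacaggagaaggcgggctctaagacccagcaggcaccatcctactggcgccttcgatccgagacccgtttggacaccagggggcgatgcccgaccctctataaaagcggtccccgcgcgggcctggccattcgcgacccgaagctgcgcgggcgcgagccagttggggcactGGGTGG
Cebpb, chr2:167688665-167688964, plus strand: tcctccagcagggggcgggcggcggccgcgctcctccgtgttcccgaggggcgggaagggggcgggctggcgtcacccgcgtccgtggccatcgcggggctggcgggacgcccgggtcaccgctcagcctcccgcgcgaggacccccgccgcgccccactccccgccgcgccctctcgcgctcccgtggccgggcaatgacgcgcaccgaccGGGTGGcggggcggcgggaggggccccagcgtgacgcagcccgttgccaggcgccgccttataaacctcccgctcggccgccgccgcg
Irf8, first of 2 listed starts, chr8:120736108-120736407, plus strand: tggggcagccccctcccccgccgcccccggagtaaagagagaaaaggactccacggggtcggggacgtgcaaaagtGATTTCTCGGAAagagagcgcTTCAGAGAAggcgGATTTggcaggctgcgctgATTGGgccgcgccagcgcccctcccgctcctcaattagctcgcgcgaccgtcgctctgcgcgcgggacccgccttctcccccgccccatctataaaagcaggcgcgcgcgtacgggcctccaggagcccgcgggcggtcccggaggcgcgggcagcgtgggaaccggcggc
The Gfi1 window held the C/EBP pattern TTGCNNAA, searched like all others on both strands, as TTGCTGAA at -143 to -136 from the start. That pattern occurred in 10.8% of 32851 mouse windows of this length. The KLF pattern CCACCC (31.5% of windows) occurred at 2 places in the Gfi1 window, at 2 in Cebpa and at 1 in Cebpb. The Irf8 window held the STAT pattern TTCNNNGAA (8.30% of windows) at -171 to -163 and at -153 to -145. It also held the GFI1 pattern AAATC (35.9%) at 2 places, the first overlapping the first STAT match, and CCAAT (37.4%) once. The PU.1 pattern GAGGAA (28.3%) was in none of the 8 windows. These are letter matches in 1 window per start and describe no factor's binding.

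Against the IL-3 controls, 6 of the 9 regulators were lower in the ITD lines and none was higher. The falls were steepest for Cebpd, Gfi1 and Spi1 and shallower for Cebpa, Cebpb and Cebpe, while Irf8, Klf2 and Klf4 were not called. Over all genes, 8.15% were called lower in this contrast. The median difference was -0.39 over the 9 regulators and -0.01 over all genes. In 2 regulators, Cebpd and Spi1, every ITD array lay below every IL-3 control array, which held for 1.39% of all genes. The contrast sets the ITD mean against the unweighted mean of 3 control lines, and its SE leaves out the differences between those lines. When each of the 12 lines counted once, 3 regulators were called (Cebpd, Spi1 and Gfi1).

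**Figure D1:**
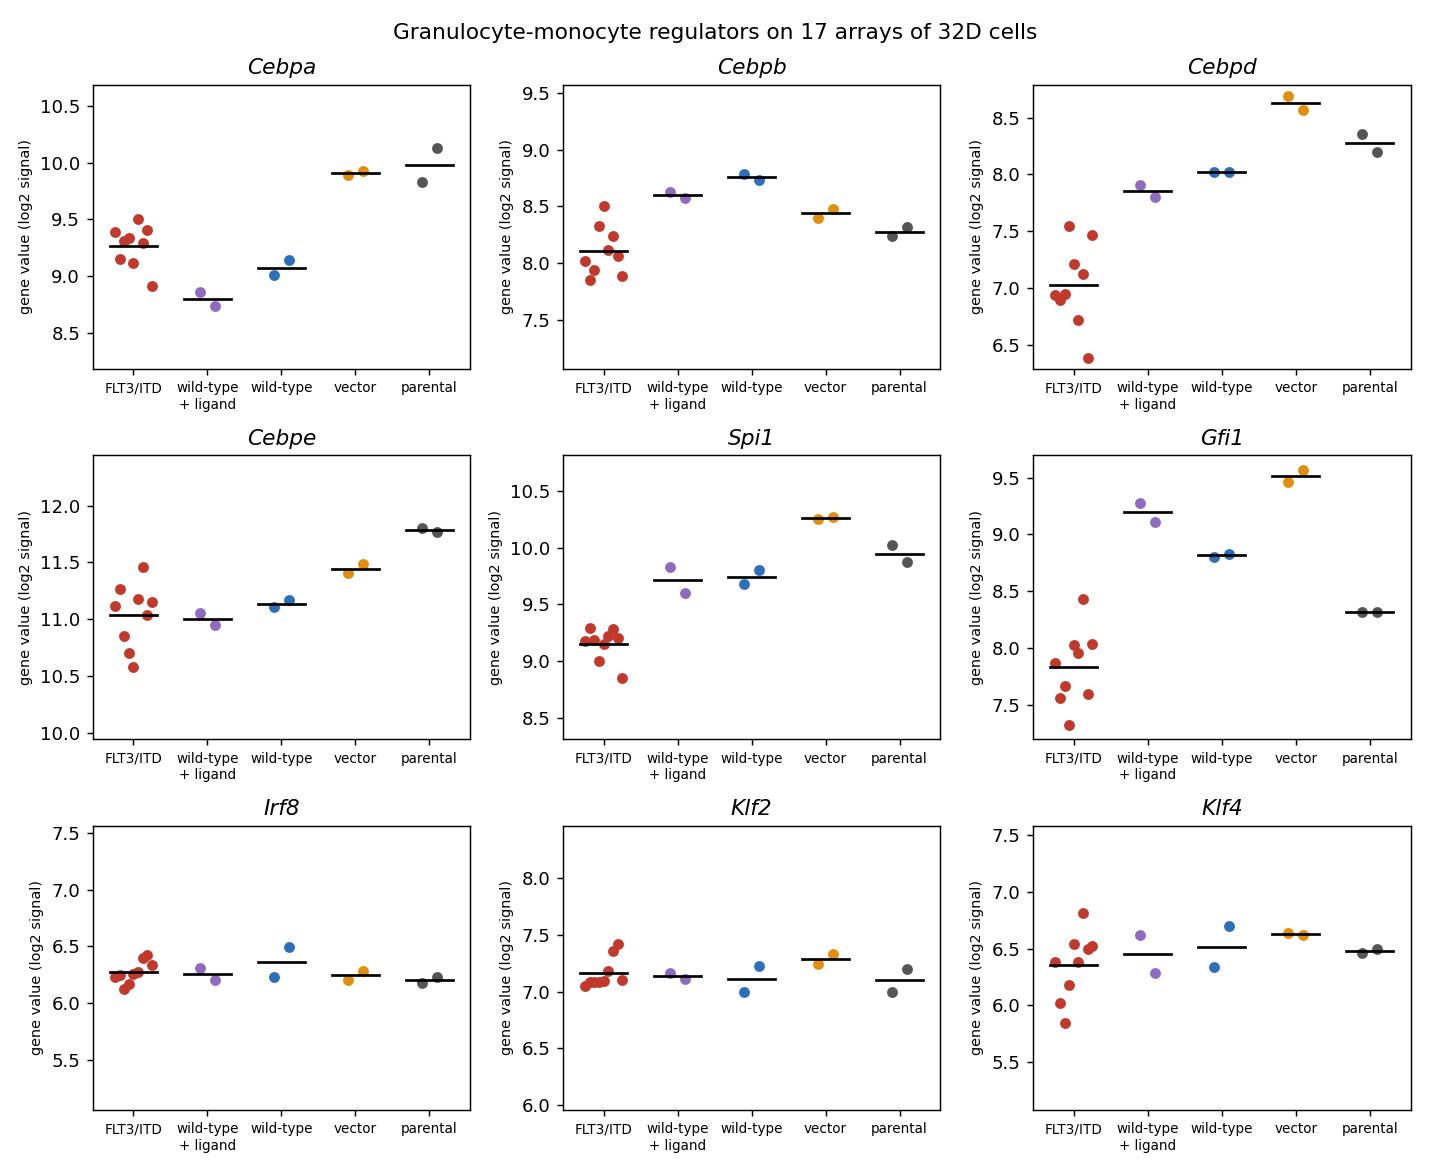
Gene values (log2 signal, y axis, each panel spanning 2.5 units) of the 9 regulators on 17 arrays by group (x axis), with 1 point per array and a line at the group mean. The 9 ITD points of Cebpd and Spi1 lie below all other points, those of Gfi1 overlap the parental pair alone, and those of Irf8 and Klf2 overlap the points of each other group.

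Cebpd, the inflammation-inducible C/EBP gene, showed the largest difference among the 9 against the IL-3 controls. Its value on the ITD arrays was 6.39 at the lowest, 6.95 at the median and 7.55 at the highest. With wild-type FLT3 and ligand it was 7.90 and 7.80, with wild-type FLT3 8.02 and 8.02, with the vector 8.69 and 8.56, and in parental cells 8.36 and 8.19. All 9 ITD arrays were below all 8 others, with no overlap with any group. The ITD lines averaged 1.28 ± 0.14 below the IL-3 controls (2.43-fold, limma adjusted p 1.14e-05). The difference was -0.83 ± 0.21 against wild-type with ligand (adjusted p 0.0267) and -0.998 ± 0.21 against wild-type (adjusted p 0.00768). The first of these calls was lost without either array with ligand (adjusted p 0.27 and 0.202) and the second without either wild-type array (0.109 and 0.122). It was -1.60 ± 0.21 against vector (adjusted p 0.00011) and -1.25 ± 0.21 against parental cells (adjusted p 0.000473). In the order of group means, vector, parental, wild-type, wild-type with ligand and ITD, the gap between wild-type with ligand and ITD passed the test, and no gap between neighbouring control groups did. All 10 used probe sets of Cebpd were lower in the ITD mean than in the IL-3 controls, by 0.65 to 1.86. In 4 of them ITD and IL-3 control arrays did not overlap, arrays with ligand being left out of this count.

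Spi1, encoding PU.1, had the same separation with less spread. The ITD arrays held 8.85 at the lowest, 9.18 at the median and 9.29 at the highest. The values were 9.83 and 9.60 with wild-type FLT3 and ligand, 9.68 and 9.80 with wild-type FLT3, 10.25 and 10.27 with the vector, and 10.02 and 9.87 in parental cells. Again no ITD array reached the lowest array of any other group. The ITD lines averaged 0.83 ± 0.07 below the IL-3 controls (1.78-fold, limma adjusted p 1.47e-06). The fall was largest against vector, at -1.11 ± 0.11 (adjusted p 6.9e-06), and was -0.79 ± 0.11 against parental cells (adjusted p 6.15e-05). Against wild-type it was -0.59 ± 0.11 (adjusted p 0.00265) and against wild-type with ligand -0.57 ± 0.11 (adjusted p 0.00371). These 2 calls were lost without wild-type replicate 2 (adjusted p 0.101) and without the first array with ligand (0.165). All 8 probe sets were lower in the ITD mean than in the IL-3 controls, by 0.57 to 1.02, and 6 of them without overlap with IL-3 control arrays. Arrays with ligand were left out of this count. The order of means was vector, parental, wild-type, wild-type with ligand and ITD, with the last gap called and the first 3 not.

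Gfi1, the gene of the GFI1 repressor, spread more among the controls. The ITD arrays ran from 7.32 through a median of 7.86 to 8.43. The values were 9.27 and 9.11 with wild-type FLT3 and ligand, 8.80 and 8.83 with wild-type FLT3, 9.46 and 9.57 with the vector, and 8.31 and 8.32 in parental cells. ITD arrays lay below every vector and wild-type array, with or without ligand, but line 7, at 8.43, was above both parental arrays. The ITD lines averaged 1.05 ± 0.13 below the IL-3 controls (2.08-fold, limma adjusted p 3.28e-05). The difference was -1.69 ± 0.19 against vector (adjusted p 3.38e-05), -1.37 ± 0.19 against wild-type with ligand (adjusted p 0.00047) and -0.99 ± 0.19 against wild-type (adjusted p 0.00476), the last lost without either wild-type array (adjusted p 0.0843 and 0.0969). Against parental cells it was -0.49 ± 0.19 and was not called (adjusted p 0.1). All 21 probe sets were lower in the ITD mean than in the IL-3 controls, by 0.32 to 1.33, and 7 of them without overlap between arrays. In the order vector, wild-type with ligand, wild-type, parental and ITD no gap between neighbours was called.

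Cebpa, which specifies the granulocyte-monocyte lineage, differed among the control lines as well as between them and the ITD lines. The ITD arrays held 8.91 at the lowest, 9.31 at the median and 9.50 at the highest. With wild-type FLT3 and ligand the values were 8.86 and 8.74, with wild-type FLT3 9.01 and 9.15, with the vector 9.89 and 9.93, and in parental cells 9.83 and 10.13. The ITD arrays therefore lay below the vector and parental arrays, overlapped the wild-type arrays and lay above the arrays with ligand. The ITD lines averaged 0.39 ± 0.08 below the IL-3 controls (limma adjusted p 0.00425). That call was lost without the parental line (-0.22, adjusted p 0.139) or the vector line (-0.26, adjusted p 0.118), and without the wild-type line the difference was -0.68. Against vector the difference was -0.64 ± 0.13 (adjusted p 0.00283), and against parental cells -0.71 ± 0.13 (adjusted p 0.000763). The first was lost without either vector array (adjusted p 0.0502 and 0.066) and the second without parental replicate 2 (0.056). Against wild-type it was 0.19 ± 0.13 and was not called (adjusted p 0.408). Against wild-type with ligand Cebpa was higher by 0.47 ± 0.13 (adjusted p 0.0361). That call was lost in 10 of 24 alternatives, among them the median of probe sets (adjusted p 0.168), a fit of the groups compared (0.0806) and the omission of either array with ligand (0.191 and 0.378). Of the order parental, vector, ITD, wild-type and wild-type with ligand, the gap between vector and ITD was called. All 5 probe sets had lower ITD means than the IL-3 controls, by 0.18 to 0.50, with overlapping arrays.

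Markers of other blood lineages (mast cell, eosinophil and erythroid) had list means highest in parental cells and lowest in the cultures of the wild-type line. Cebpa too had its lowest means in that line, but its parental and vector arrays overlapped (0.07 ± 0.16 apart, limma adjusted p 0.896). The mean of 9 mast cell and basophil genes was 7.21 to 8.14 on the ITD arrays, 6.65 on both arrays with ligand, 6.75 to 6.91 with wild-type FLT3, 7.72 to 7.79 with the vector and 9.14 to 9.31 in parental cells. The mean of 6 eosinophil genes was 6.21 to 8.54 on the ITD arrays, 5.20 to 5.37 with ligand, 5.30 to 5.52 with wild-type FLT3, 7.15 to 7.18 with the vector and 8.97 to 9.23 in parental cells. Of those 6 genes, 3 averaged below 4.599 with ligand and 1 with wild-type FLT3. The mean of 8 erythroid and megakaryocyte genes was 6.96 to 7.99 on the ITD arrays, 6.49 to 6.72 with ligand, 6.48 to 6.51 with wild-type FLT3, 7.03 to 7.06 with the vector and 8.01 on both parental arrays. The part of these lineages in the level of Cebpa was not tested. Called in ITD against the IL-3 controls were 1 mast cell and basophil gene higher and 2 lower, 1 eosinophil gene higher, and 3 erythroid and megakaryocyte genes higher. Of all genes 11.2% were called higher and 8.15% lower there, so the single calls among 9 and 6 genes are near that background. Mcpt4, Ear1, Ear2 and Hba-a1 were not analysed here. The eosinophil peroxidase gene Epx was higher in ITD than in the IL-3 controls by 1.26 ± 0.30 (limma adjusted p 0.00787), but by -0.40 without the wild-type line. Prss34, a mast cell and basophil protease gene, was higher by 1.76 ± 0.28 (adjusted p 0.000379), against 0.17 without the wild-type line. The basophil protease gene Mcpt8 (-0.86 ± 0.26, adjusted p 0.0253) and the mast cell chymase gene Cma1 (-0.86 ± 0.14, adjusted p 0.000379) were lower, but stood at -0.09 and 0.02 without the parental line.

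**Figure D2:**
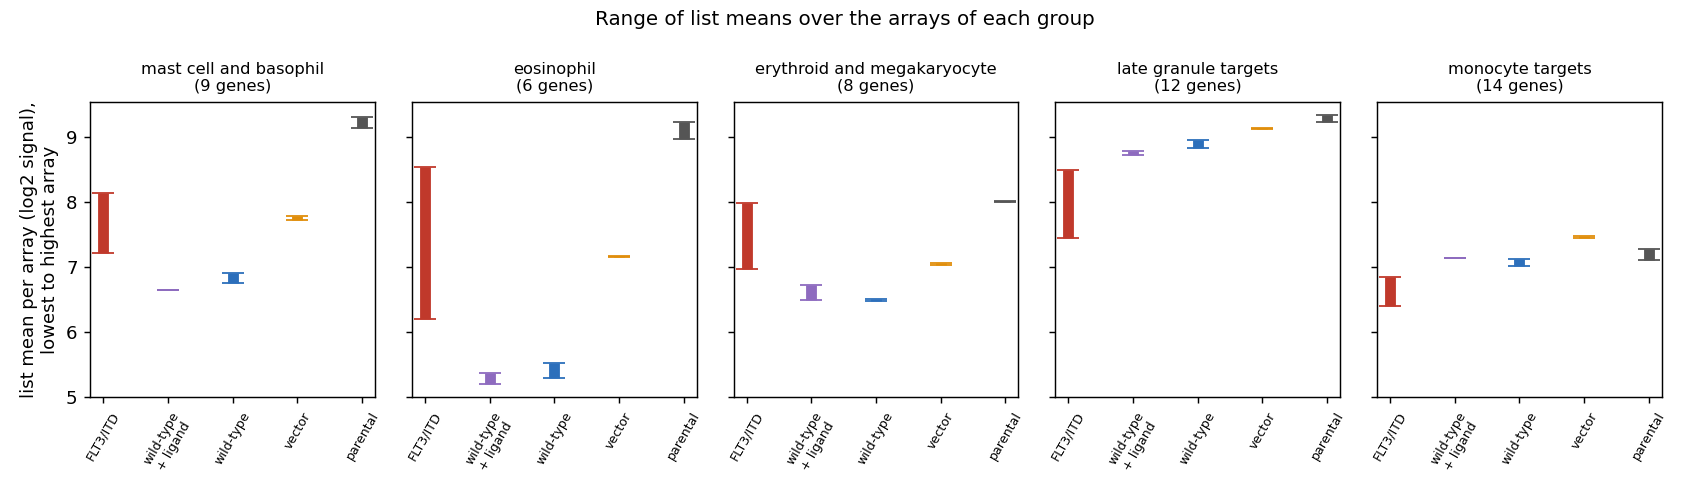
Range over arrays (bars from the lowest to the highest array) of the mean log2 signal (y axis) of 5 gene lists in the 5 groups (x axis). Mast cell, eosinophil and erythroid means are highest in parental cells and lowest in the wild-type cultures, whereas late granule and monocyte means of the ITD lines lie below those of every control array.

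Cebpb, which acts in macrophages and in stress granulopoiesis, had the means of the 3 IL-3 control lines in the reverse order to Cebpa. The ITD arrays held 7.85 at the lowest, 8.07 at the median and 8.50 at the highest. The values were 8.63 and 8.57 with wild-type FLT3 and ligand, 8.79 and 8.73 with wild-type FLT3, 8.40 and 8.48 with the vector, and 8.24 and 8.31 in parental cells. ITD arrays lay below all 4 arrays of the wild-type line and overlapped those of vector and parental cells. The ITD lines averaged 0.39 ± 0.09 below the IL-3 controls (limma adjusted p 0.00691), and the call was lost without the wild-type line (-0.25, adjusted p 0.116). The difference was -0.66 ± 0.14 against wild-type (adjusted p 0.00707) and -0.49 ± 0.14 against wild-type with ligand (adjusted p 0.0415). The call against wild-type was lost without either wild-type array (adjusted p 0.123 and 0.101). That against wild-type with ligand was lost in 16 of 24 alternatives (adjusted p up to 0.318). Against vector (-0.33 ± 0.14, adjusted p 0.116) and parental cells (-0.17 ± 0.14, adjusted p 0.471) it was not called. No gap between neighbours was called in the order wild-type, wild-type with ligand, vector, parental and ITD. All 6 probe sets had lower ITD means than the IL-3 controls, by 0.10 to 0.58, with overlapping arrays.

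Cebpe, the late granulocytic C/EBP gene, was called against the parental group alone when groups were taken singly. Its ITD values were 10.58 at the lowest, 11.12 at the median and 11.46 at the highest. They were 11.05 and 10.95 with wild-type FLT3 and ligand, 11.11 and 11.16 with wild-type FLT3, 11.40 and 11.49 with the vector, and 11.81 and 11.77 in parental cells. ITD arrays overlapped every group but the parental one. The ITD lines averaged 0.42 ± 0.11 below the IL-3 controls (limma adjusted p 0.0119), and the call was lost without the parental line (-0.25, adjusted p 0.212). Against parental cells the fall was 0.75 ± 0.16 (adjusted p 0.00344), a call lost without either parental array (adjusted p 0.0556 and 0.0513). The difference was -0.41 ± 0.16 against vector (adjusted p 0.104), -0.10 ± 0.16 against wild-type (adjusted p 0.783) and 0.03 ± 0.16 against wild-type with ligand (adjusted p 0.948), none of them called. The order of means was parental, vector, wild-type, ITD and wild-type with ligand, with no gap called. Of the 4 probe sets 3 had a lower ITD mean than the IL-3 controls, by up to 0.70, and 1 was higher by 0.12.

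For Irf8, Klf2 and Klf4 no comparison among the 5 groups was called, and arrays of neighbouring groups overlapped throughout. Irf8 held 6.13 at the lowest, 6.26 at the median and 6.42 at the highest on the ITD arrays and 6.18 to 6.49 over the 6 IL-3 controls. The difference was 0.0044 ± 0.07 (limma adjusted p 0.973), and 4 of its 9 probe sets were lower and 5 higher. Probe set 3 had a 17-array mean of 10.96 and was higher in ITD by 0.22, with overlapping arrays. The other used probe sets had means of 5.09 to 6.55, so the Irf8 value rests mostly on weak signals and is a limited measure of no change. Klf2 held 7.05 at the lowest, 7.10 at the median and 7.42 at the highest on the ITD arrays and 6.996 to 7.33 over the IL-3 controls, with a difference of -0.0029 ± 0.07 (adjusted p 0.984). Klf4, a monocyte-promoting gene, held 5.84 at the lowest, 6.38 at the median and 6.82 at the highest on the ITD arrays and 6.34 to 6.70 over the IL-3 controls. Its difference was -0.19 ± 0.13 and was not called (adjusted p 0.34), although all 6 used probe sets had lower ITD means. Of the probe sets listed, 7 of 13 for Klf4, 2 of 7 for Klf2 and 2 of 11 for Irf8 were too dim to be used.

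**Figure D3:**
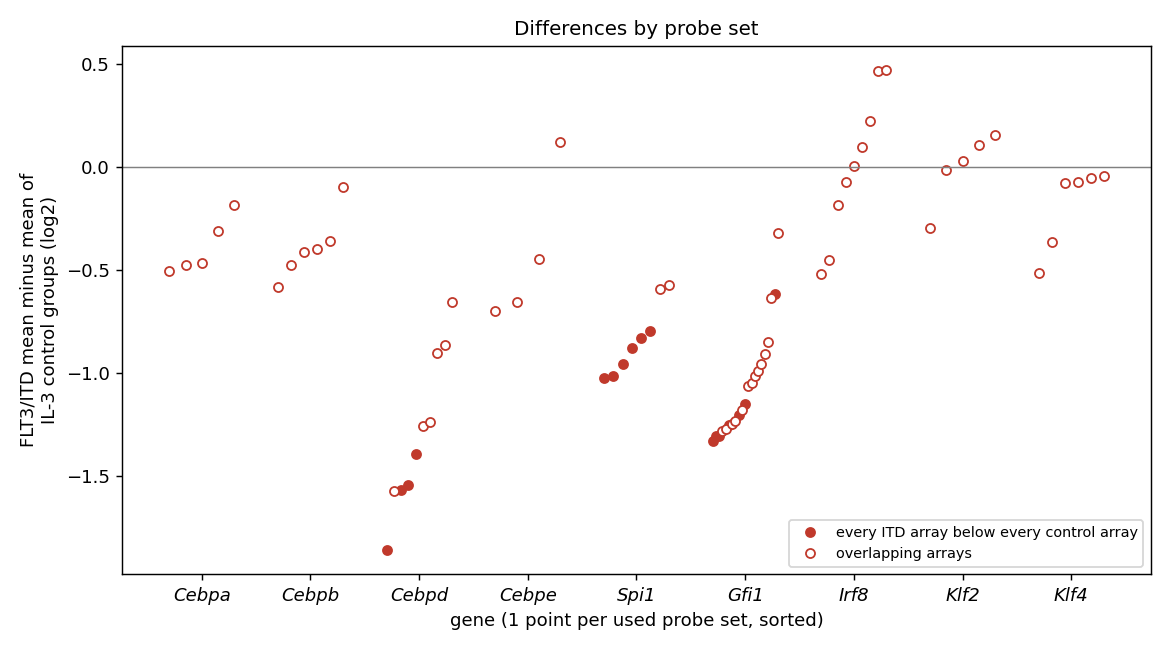
Difference of the ITD mean from the mean of the IL-3 control groups (log2, y axis) for each used probe set of the 9 genes (x axis), filled where every ITD array lay below every IL-3 control array. All points of Cebpd, Spi1 and Gfi1 lie below 0, between -1.86 and -0.32, and those of Irf8 and Klf2 lie on both sides of it.

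Taken group by group, the counts of called regulators were as follows. Against wild-type FLT3, 4 were lower (Cebpd, Gfi1, Cebpb and Spi1) where 4.44% of all genes were, and none was higher. Without wild-type replicate 1 this count was 1 (Spi1), and without replicate 2 it was 0. Against wild-type with ligand, 4 were lower (4.08% of all genes) and Cebpa was higher (1.72% of all genes). Without the first or the second array with ligand, 1 and 2 of these calls passed, and with those groups fitted alone 2 did. Against vector, 4 were lower (Gfi1, Cebpd, Spi1 and Cebpa, 5.21% of all genes). Against parental cells, 4 were lower (Cebpd, Spi1, Cebpe and Cebpa, 6.72% of all genes), and 2 without parental replicate 2. These comparisons share the ITD arrays, so their calls are not independent. With all arrays in the fit, Cebpd and Spi1 were called lower in all 4.

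**Figure D4:**
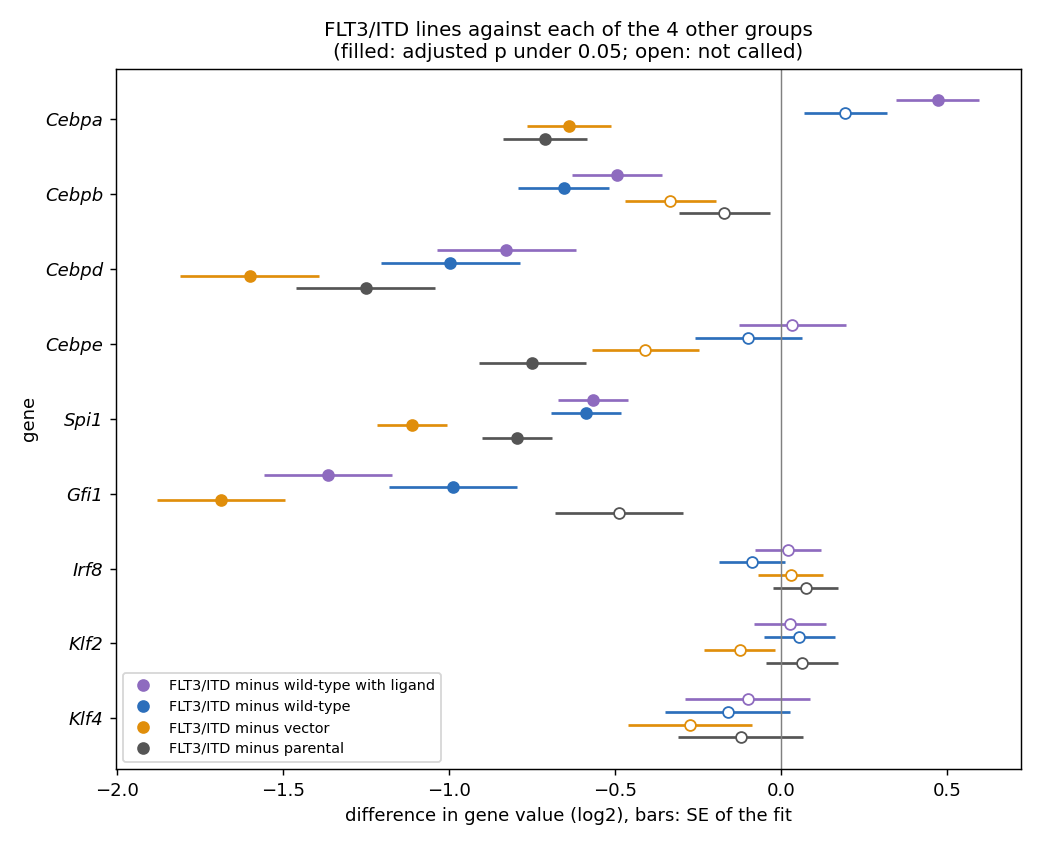
Difference in gene value (log2, x axis) between the ITD lines and each of the 4 other groups for the 9 genes (y axis), with bars of 1 SE and filled points where called. Cebpd and Spi1 have 4 filled points left of 0, whereas Cebpa lies right of 0 against wild-type with ligand (0.47) and left of it against parental cells (-0.71).

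The comparison of wild-type cultures with and without ligand asked what ligand does to the normal receptor. None of the 9 regulators was called by limma, also at an unadjusted p under 0.05, and 0% of all genes were. At that unadjusted p 1555 genes passed, and the smallest adjusted p was 0.141. Gfi1 was 0.38 ± 0.25 higher with ligand (limma adjusted p 0.766), and it was called when those 4 arrays were fitted alone (adjusted p 0.0471). It was also called in fits of the 8 control arrays (adjusted p 0.0244, and 0.0475 with a term for replicate number). In the main fit 8 of the 12 residual degrees of freedom come from the ITD lines. The SD of Gfi1 was 0.33 over those lines and 0.07 within control pairs. Both its arrays with ligand lay above both without, but 5 of the 9 regulators had no overlap in this comparison. With so few arrays, and no share of all genes without overlap given, this separation carries little weight. Cebpa was 0.28 ± 0.16 lower with ligand (adjusted p 0.73). In direction, Gfi1 thus stood at 0.38 with ligand and at -0.99 in the ITD lines, each against the same wild-type arrays.

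Wild-type FLT3 was set against the vector to ask what the normal receptor does under IL-3. Cebpa fell by 0.83 ± 0.16 (limma adjusted p 0.00434) and Spi1 fell by 0.52 ± 0.14 (adjusted p 0.0231), where 2.71% of all genes were called lower. Both wild-type arrays lay below both vector arrays for each gene, but 7 of the 9 regulators had no overlap in this comparison. The share of all genes without overlap is not given, so such separation of 2 arrays from 2 carries little weight. The call of Spi1 was lost without any 1 of the 4 arrays (adjusted p 0.075 to 0.191), and that of Cebpa without wild-type replicate 1 (adjusted p 0.063). Gfi1 (-0.70 ± 0.25, adjusted p 0.0972) and Cebpd (-0.60 ± 0.27, adjusted p 0.2) were not called with the ITD lines in the fit. In fits of the 8 control arrays alone, up to 6 regulators were called here and up to 4 for vector against parental cells. Between vector and parental cells, 1 regulator was called: Gfi1 was higher by 1.20 ± 0.25 (limma adjusted p 0.0147), where 1.27% of all genes were called higher. This call too was lost without any 1 of the 4 arrays (adjusted p 0.095 to 0.137).

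The 9 ITD lines, each a different mutant, asked how far such lines differ. Each mutant was carried by 1 line, so mutant and line cannot be told apart, and the spread within control pairs may be technical. Cebpd spanned 1.16 (log2) from line 8 to line 4, and Gfi1 spanned 1.11 from line 4 to line 7. Klf4 spanned 0.97 from line 3 to line 7, and Cebpe 0.88 from line 5 to line 7. Spi1 spanned 0.44, with line 9 lowest. No regulator passed the F test of variance among ITD lines over variance within control pairs after adjustment (one-sided, Benjamini-Hochberg), where 2.55% of all genes did. At an unadjusted p under 0.05, where 24.3% of all genes passed, 4 regulators did: Cebpe (ratio 28.2, adjusted p 0.0643), Gfi1 (23.1, 0.0752), Cebpb (20.0, 0.0821) and Cebpd (19.9, 0.0826). The ratio was 1.77 for Spi1, whose SD was 0.14 over the ITD lines and 0.11 within control pairs. Because each mutant had 1 array, no line was tested alone.

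**Figure D5:**
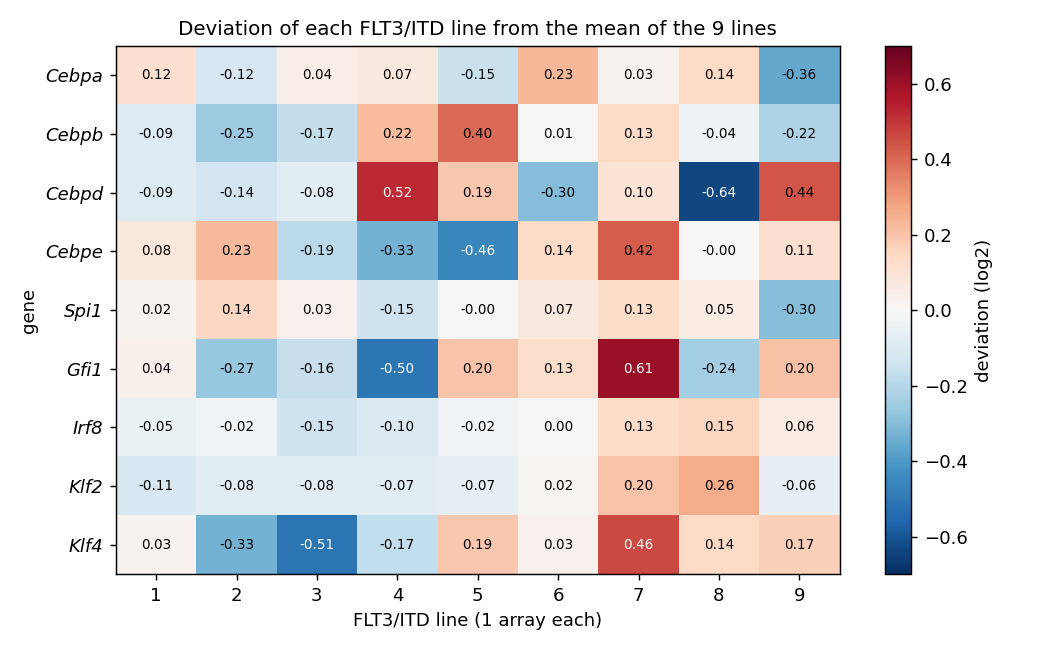
Deviation (log2, colour and printed value) of each of the 9 ITD lines (x axis, 1 array each) from their mean for the 9 genes (y axis). Line 7 is highest for Cebpe, Gfi1 and Klf4, and line 8 is lowest for Cebpd at -0.64 while line 4 is highest at 0.52.

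Within the ITD lines the regulators did not vary as 1 block. Over the 9 lines Cebpd and Spi1, both low in all of them, correlated at r = -0.67 (rho -0.70). Pearson's r was 0.12 between Spi1 and Gfi1 and 0.08 between Cebpd and Gfi1. Irf8 correlated at r = 0.83 with Klf2 and at 0.80 with Klf4. The variance ratio of ITD lines over control pairs was 0.89 for Irf8, 1.43 for Klf2 and 2.87 for Klf4. The F test passed for none of these 3, also before adjustment (p 0.593, 0.388 and 0.162). Spi1 did not pass that F test either (ratio 1.77, p 0.304). Whether the correlations of Spi1, Irf8, Klf2 and Klf4 reflect more than the spread between replicate arrays was not tested. Cebpe correlated with the mean of 12 late granule genes at r = 0.69 (rho 0.48), but at 0.01 without the 2 lines whose Cebpe lay farthest from the median. Gfi1 correlated with the mean of 14 monocyte genes at r = 0.71 (rho 0.55), but at 0.09 without such 2 lines. Both relations rest on those lines. The lowest of the 24 relations computed, between Cebpb and early granule genes, was r = -0.75 (rho -0.67) and stayed at -0.61. These are descriptions of 9 arrays.

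Known targets of the regulators were read from lists of genes, in a contrast that called 11.2% of all genes higher and 8.15% lower. Of 6 measured early granule genes 4 were lower in ITD than in the IL-3 controls and none higher, with a median of -0.53 where that of all genes was -0.01. Lyz2, the lysozyme gene, fell by 1.31 ± 0.12 (limma adjusted p 2.83e-06), Mpo (myeloperoxidase) by 0.88 ± 0.18 (adjusted p 0.00224) and the serine protease gene Prss57 by 0.70 ± 0.15 (adjusted p 0.00336). The list dropped to 2 called genes without the parental line, where Mpo was at -0.51 (adjusted p 0.128) and Prss57 lost its call too (adjusted p 0.0791, and 0.106 without the vector line). Against wild-type FLT3 alone 1 of the 6 was lower, where 4.44% of all genes were, and the list median was -0.02 (all genes -0.04). That median was -0.54 against vector and -0.83 against parental cells, so the fall of the list was relative to those lines. Against the IL-3 controls, 9 of 12 late granule genes were lower and 1 higher (median -1.05). Ly6g, a neutrophil surface marker with 2 probe sets, fell by 2.54 ± 0.24 (adjusted p 2.93e-06). It averaged 4.66 in ITD, near the threshold of 4.599, and 5.06 with wild-type FLT3 and ligand. With wild-type FLT3 it averaged 5.46, and 8.07 with the vector and in parental cells. The fall of Ly6g was thus mainly relative to the vector and parental lines, and against wild-type it was not called (-0.81, adjusted p 0.198). The calprotectin genes followed, as S100a9 fell by 2.18 ± 0.24 and S100a8 fell by 1.65 ± 0.27. Of 9 receptor genes 6 were lower (median -0.94), among them Trem1, which amplifies myeloid inflammation, by 1.95 ± 0.21, the IgG receptor gene Fcgr3 by 1.32 ± 0.15 and the endotoxin co-receptor gene Cd14 by 1.30 ± 0.13. Cd14 averaged 4.79 in ITD, near the threshold of 4.599, 5.14 in parental cells, 6.48 with wild-type FLT3 and 6.65 with the vector. The fall of Cd14 was thus mainly relative to the vector and wild-type lines. The M-CSF receptor gene Csf1r, a PU.1 target, fell by 0.71 ± 0.06 (adjusted p 1.86e-06) and the G-CSF receptor gene Csf3r, a target of C/EBP-alpha and PU.1, by 0.97 ± 0.20 (adjusted p 0.00267). Csf1r and Csf3r lay outside the naming rule and were chosen after their values were seen, and the call of Csf3r was lost without the vector line (adjusted p 0.0598). Against wild-type Csf1r was not called (-0.29, adjusted p 0.0732), whereas Csf3r was (-1.09, adjusted p 0.032). The other receptor genes of that list, Csf2ra (-0.15), Csf2rb (-0.18) and Il6ra (-0.12), were not called against the IL-3 controls, and Itgam was lower (-0.94).

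Of 14 measured monocyte genes 7 were lower and none higher (median -0.51). The protease gene Ctss fell by 1.98 ± 0.31, the macrophage antigen gene Adgre1 by 1.59 ± 0.23 and the macrophage perforin-like gene Mpeg1 by 1.36 ± 0.19. Ctss averaged 6.27 in ITD, 9.69 with wild-type FLT3, 9.82 with the vector and 5.23 in parental cells, so its fall was relative to the vector and wild-type lines. With each of the 12 lines counted once, 7 late granule, 5 receptor, 2 early granule and 1 of the monocyte genes were called, and of the lists below 3 genes around GFI1, 2 markers of identity, 1 PU.1 relative, 1 IRF relative and no gene of the other lists. All these directions were already known when the lists were drawn up, and the lists give no independent evidence.

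Relatives and partners of the regulators were divided, and their counts are again read against 11.2% of all genes higher and 8.15% lower. Of 11 C/EBP relatives and partners 2 rose, the stress-response factor gene Atf4 by 0.25 ± 0.05 (limma adjusted p 0.00274) and the Tribbles pseudokinase gene Trib3 by 0.60 ± 0.20 (adjusted p 0.043). Without the parental line both calls were lost (0.03 and 0.09), and that of Trib3 was lost in 20 of 28 alternatives. Of 14 PU.1 relatives and partners 2 rose and 2 fell. The shares of both lists are close to those of all genes. The progenitor factor gene Gata2 was higher by 0.58 ± 0.10 (adjusted p 0.000447) but by 0.06 without the wild-type line, and the lymphoid-myeloid zinc finger gene Ikzf1 fell by 0.64 ± 0.09 (adjusted p 0.000145). Spic, an ETS relative of Spi1 with 1 probe set, fell by 0.46 ± 0.14 (adjusted p 0.027), but by 0.16 without the vector line (not called). Elf4 was not analysed here.

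The 11 genes around GFI1 held 5 that rose and 2 that fell, with 11.2% and 8.15% of all genes doing so. Egr1, an early growth response gene of the monocyte arm that GFI1 opposes, rose by 1.61 ± 0.10 (limma adjusted p 8.53e-08). Id2 and Csf1, both described as GFI1-repressed in mouse cells, fell by 1.27 ± 0.15 (adjusted p 2.66e-05) and 1.33 ± 0.31 (adjusted p 0.00593). Csf1 lost its call without the vector line (adjusted p 0.0627). Gfi1b, the paralog of Gfi1 that acts in erythroid and megakaryocyte cells, was higher by 1.12 ± 0.17 (adjusted p 0.000199) and was chosen after its values were seen. It averaged 10.15 in ITD, 8.30 with wild-type FLT3 and ligand, 8.25 with wild-type FLT3, 9.09 with the vector and 9.73 in parental cells, while Gfi1 averaged 7.83 in ITD and 8.32 or more in each other group.

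Of 7 measured relatives of Irf8 3 fell and 1 rose, the single rise being near the 11.2% of all genes. The interferon-response factor genes Irf7 and Irf9 fell by 0.95 ± 0.16 and 0.44 ± 0.09, but without the vector line the differences were -0.28 and 0.11, and neither was called. Irf1 fell by 0.47 ± 0.07 (limma adjusted p 0.000112). Of 12 KLF relatives the erythroid factor gene Klf1 was higher by 1.00 ± 0.19 (adjusted p 0.0013) but by 0.31 without the wild-type line, and Klf6 fell by 0.75 ± 0.25 (adjusted p 0.0435), a call lost without any 1 of the 3 control lines. These single calls are near the share of all genes in each direction. Among 10 genes of cytokine signals upstream of the C/EBPs 3 fell and none rose. Nfkbia, the NF-kappa-B inhibitor and target, fell by 1.08 ± 0.20 (adjusted p 0.00127), the kinase gene Jak2 by 0.28 ± 0.08 (adjusted p 0.0163) and the NF-kappa-B cofactor gene Bcl3 by 0.24 ± 0.08 (adjusted p 0.0382). Without the vector line none of these 3 was called. Klf9 was not analysed here.

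Among the markers of identity, where 8.15% of all genes were lower, Ptprc (CD45) fell by 0.53 ± 0.08 (limma adjusted p 0.00025) and the myeloid antigen gene Cd33 by 0.95 ± 0.20 (adjusted p 0.00295), with 4 of 7 genes lower and none higher. Gata1 (0.73 ± 0.20, adjusted p 0.0156) and Itga2b (0.75 ± 0.13, adjusted p 0.000529) were higher among the erythroid and megakaryocyte genes, 3 of 8 with Klf1. Without the wild-type line they stood at -0.08 and 0.40 and were not called. None of 7 lymphoid genes was called by limma. Of 5 fibroblast genes Pdgfrb fell by 0.68 ± 0.15 (adjusted p 0.00432). The lymphoid mean was 5.20 to 5.71 in ITD and 5.38 to 5.79 in the controls.

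Genes with profiles most like each regulator were sought by Pearson's r over the 17 arrays among 3098 genes with at least 3 used probe sets and an SD of at least 0.3. The arrays share group structure, so these values describe the groups as much as single arrays. Gfi1 was followed by the purinergic receptor gene P2ry13 (r = 0.97, and 0.70 within the ITD lines) and the lymphotoxin gene Ltb (0.96 and 0.86). P2ry13 averaged 5.75 in ITD, 8.35 with wild-type FLT3 and ligand, 7.82 with wild-type FLT3, 8.69 with the vector and 6.57 in parental cells. Spi1 was followed by the progranulin gene Grn (0.96, and 0.48 within ITD) and Pnpla7 (0.95 and 0.88). Cebpd was followed by Nme7 (0.94 and 0.81) and the carnitine acetyltransferase gene Crat (0.94 and 0.81). Cebpb was followed by the interferon receptor gene Ifnar2 (0.93 and 0.87) and Dram2 (0.93 and 0.87). For Cebpe these were Tmem216 (0.90 and 0.79) and Evl (0.89 and 0.84), and for Cebpa Pld3 (0.90 and 0.49) and the desaturase gene Scd3 (0.90 and 0.38). Likeness over the 17 arrays was weaker for the other 3 genes, with Tcap (0.84) and Gbgt1 (0.83) for Klf4, Sowaha (0.79) and Gpr20 (0.71) for Irf8, and Gpx6 (0.78) and Tmed6 (0.75) for Klf2.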

How the data were processed

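Per the submitters' processing notes, the authors used RMA and Affymetrix Expression Console 1.1. The deposited table held log2 values per probe set after background correction, normalisation and summary of probes as RMA does them, and the genome build is not given in the sources used here. Of 1256831 probe sets, 325444 had a symbol in the platform's annotation, 6684 of these had several and were left out, and 931387 had none. Symbols were updated through RefSeq synonyms (Spi1 is listed under an older one), so that of 22296 symbols 18006 were current, 4227 changed and 63 kept. Probe sets with 1 symbol and a 17-array mean above 4.599, the median row mean, were used (237584) and averaged per gene (20227 genes). With arrays there is no read depth, and precision is limited by how many there are.

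Means of the 5 groups were fitted for every gene by limma 3.58.1 (R 4.3.3, lmFit and eBayes with a trend, 12 residual degrees of freedom, 8 of them from the ITD lines). Tests were two-sided and adjusted by Benjamini-Hochberg, with calls at an adjusted p under 0.05. The scripts were tested on simulated data. The variance over ITD lines was divided by that within control pairs (F ratio, 8 and 4 degrees of freedom). The 9 regulators and the gene lists were chosen with earlier results of these data known. From each list up to 3 genes were named, those called in ITD minus IL-3 controls with the largest difference, and for likeness the 2 genes with the highest r, predicted models excepted. Alternatives were other filters, probe set summaries, normalisations, priors and fits, and leaving out lines or arrays. Some listed genes are not reported here.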

Additional observations from a re-analysis of the deposited data

How the results depend on the processing

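Cebpd, Spi1 and Gfi1 were called lower in ITD than in the IL-3 controls under all 28 alternatives. With 12 lines as units, 3 regulators were called in that contrast in place of 6 (Cebpa, Cebpb and Cebpe lost theirs). Leaving out single arrays gave 6 calls there each time, 0 to 4 for ITD against wild-type, 1 to 5 against wild-type with ligand, 3 to 5 against vector, 2 to 5 against parental cells, 0 to 3 for wild-type against vector, 0 to 1 for vector against parental and 1 to 4 gaps in the order of levels. Fitting only the groups compared gave 2 calls for ITD against wild-type with ligand, 6 for wild-type against vector, 1 for the ligand and 3 for vector against parental. With the median of probe sets, 1 call was made for wild-type against vector, and with a stricter filter 2 regulators varied among ITD lines. In a fit of the 8 control arrays, 6, 1 and 4 regulators were called for wild-type against vector, the ligand and vector against parental without a replicate block, and 6, 1 and 3 with the replicate block. The numbers do not pair the arrays, as their deviations correlated at -0.12 to 0.09. Differences near 0 changed sign: Irf8 was -0.0372 without a filter, -0.114 with a stricter one, -0.0301 without the parental and -0.0076 without the vector line, and -0.0389 to 0.0477 without single arrays. Klf2 was 0.0852 with the median of probe sets, 0.0107 with median centring, 0.0585 without the vector line and -0.0408 to 0.035 without single arrays. Among list genes Cma1 was 0.0155 without the parental line, Irf9 0.11 without the vector line, and Epx -0.40 and Gata1 -0.0848 without the wild-type line. The cause of these changes was not tested.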
